A study of Homo sapiens with 4 samples.

Results

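The clathrin coat, its plasma membrane adaptor complex AP2 and the endocytic adaptors epsin, CALM and APPL1 were followed through 10 genes: CLTA, CLTB, CLTC, AP2A1, AP2B1, AP2M1, AP2S1, EPN1, APPL1 and PICALM. All array probes annotated to these genes were taken, 19 of the 47320 on the array, and those with a detection p under 0.01 on 2 or more of the 4 arrays were kept. This left 16 of 16561 kept probes, and all 10 genes among the 10239 that had a kept probe. The arrays measured mRNA of A549 cells, a line from a human lung adenocarcinoma. Cells of both groups had been transfected with Lipofectamine RNAiMAX and taken 24 hours later. The control group received negative control mimics (2 arrays) and the other group received miR-509-3p mimic (2 arrays). The genes were listed with earlier results of this same contrast known, and their probes were selected on the detection p-values of these arrays. Their differences and calls are therefore given as a description, with no test of their own.

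A clathrin-coated pit forms when adaptors bound to the lipid of the plasma membrane and to the tails of cargo receptors recruit clathrin, which polymerises into a cage. The clathrin unit, the triskelion, is built of heavy chains with light chains bound along their legs. AP2, a complex of an alpha, a beta, a mu and a sigma subunit, is the central adaptor. Epsin and CALM bind the membrane and help to bend it and to load cargo, and APPL1 marks a class of early endosome that the uncoated vesicles reach.

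The mature miR-509-3p is shown because it is the molecule that was added to the cells. Its seed, bases 2 to 8, is in capitals, and RefSeq places the same 22 bases at 3 loci on the minus strand of chromosome X (GRCh38.p14), chrX:147258775-147258796 (MIR509-2), chrX:147259662-147259683 (MIR509-3) and chrX:147260550-147260571 (MIR509-1).
miR-509-3p: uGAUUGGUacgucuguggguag
No other mature human miRNA of the RefSeq table, which holds 2370 names, had this seed. No transcript sequence was searched for matches to it.

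Median signals over all probes ran from 202 to 207 on the 4 arrays, and each array detected 33.7% to 34.7% of the probes. Of 7 lung epithelial markers, 6 were measured, and KRT18 was not kept. A marker that was not kept is not thereby shown to be absent. The fibroblast list had 2 of 7 markers measured, the leukocyte list 2 of 6 and the endothelial list 0 of 5, and PTPRC, PECAM1 and COL1A2 were among those not kept. The summed normalized signal of the epithelial markers was 50881 to 54249 on the control arrays and 40124 to 40753 on the mimic arrays. Within that list 3 markers were above zero and 3 below in log2 difference, from -0.91 for KRT7 and -0.31 for KRT8 to 0.47 for MUC1. That of the leukocyte markers CD14 and CD68 was 4067 to 4241 and 6677 to 6938. Of the fibroblast markers, whose sum was 259 to 270 and 385 to 431, THY1 had a log2 difference of 0.95 and COL1A1 one of 0.01 at a level close to background. The part of these shifts in any result was not tested. In RNA of a whole culture, fewer cells of a kind and less RNA per cell cannot be told apart.

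Differences between the groups went both ways among the coat genes. With the mimic, the light chain gene CLTB and the epsin gene EPN1 were higher, the heavy chain gene CLTC and the endosomal adaptor gene APPL1 were lower, and none of the 4 AP2 subunit genes was called. A call here is an adjusted p under 0.05 in limma, fitted over all kept probes and adjusted by Benjamini-Hochberg over genes. Each SE comes from this fit, which draws a probe's variance towards that of all kept probes. It is thus not the spread of that probe alone. Of the 10 members, 2 were called higher and 2 lower, where 34.4% of all 10239 genes were called, 18% higher and 16.5% lower. The groups did not overlap for 9 of the 10, as for 72.9% of all genes. The median log2 difference, mimic minus control, was 0.13 over the members and 0.04 over all genes. The median absolute difference was 0.36 and 0.25. These counts describe genes chosen with this contrast in view, and nothing is read from them. Without mimic replicate 1, 1 member was called higher and 0 lower, and without mimic replicate 2, 2 were called higher and 0 lower. Without either control replicate, 2 were called higher and 1 lower.

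**Figure D1:**
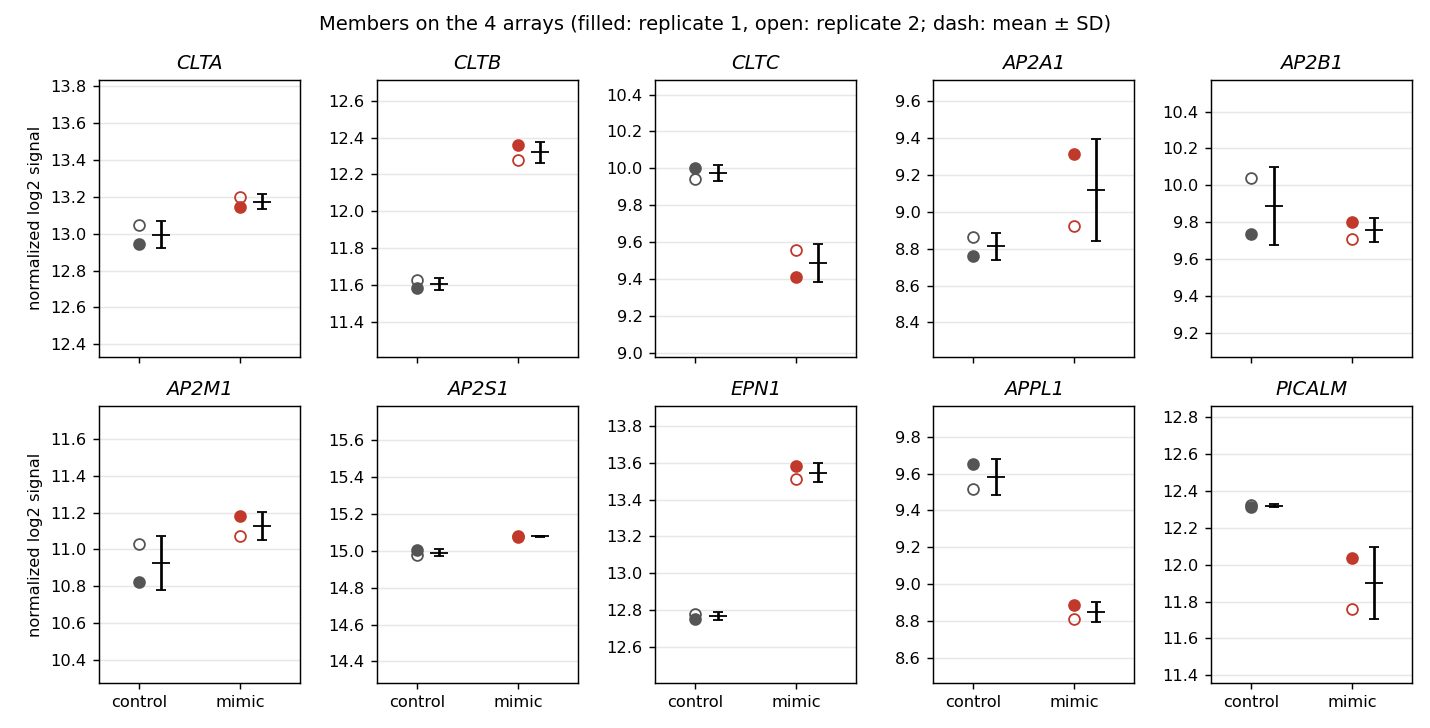
Normalized log2 signal (vertical axis, each panel spanning the same range) of the 10 members on the 2 control and 2 mimic arrays, with the mean and SD of each group beside the points. CLTB and EPN1 sit higher and CLTC, APPL1 and PICALM lower on both mimic arrays than on either control array, while the arrays of AP2B1 overlap.

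CLTC encodes the heavy chain, whose legs form the lattice of the cage. Its only annotated probe had deposited signals of 1159 and 1188 on the control arrays and 793 and 923 on the mimic arrays. The normalized log2 signals were 10.00 and 9.94 in the controls and 9.41 and 9.56 with the mimic. Both mimic arrays thus lay below both controls. The means were 9.97 ± 0.04 and 9.48 ± 0.10 (SD, n = 2 each), a log2 difference of -0.49 ± 0.09 (SE), or 1.40-fold lower. CLTC was called lower, but not when any single array was left out, nor without the filter on dim probes.

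CLTB encodes the light chain LCb. Its kept probe had signals of 3182 and 3518 on the control arrays and 5031 and 5212 on the mimic arrays. The normalized log2 signals were 11.58 and 11.63 in the controls and 12.36 and 12.28 with the mimic. The groups were well apart, with means of 11.61 ± 0.03 and 12.32 ± 0.06 (SD, n = 2 each). The difference was 0.71 ± 0.08 on the log2 scale (SE), or 1.64-fold higher, and the call was lost without mimic replicate 1. A further CLTB probe was detected on no array.

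CLTA encodes the other light chain, LCa. Its brighter kept probe read 12.94 and 13.05 in the controls and 13.15 and 13.20 with the mimic on the normalized log2 scale. The mimic arrays were the higher ones, by a narrow margin, and the log2 difference was 0.18 ± 0.08 (SE). The second kept probe read 12.09 and 12.22 in the controls and 12.36 and 12.25 with the mimic, a difference of 0.15 ± 0.09. CLTA was not called, except with a variance trend in the fit. A further CLTA probe was detected on no array.

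The balance of the light chain genes was set out array by array, since each array carries both probes. The log2 signal of CLTB minus that of CLTA was -1.36 and -1.42 on the control arrays and -0.78 and -0.92 on the mimic arrays. It moved by 0.54 towards CLTB, from -1.39 ± 0.04 to -0.85 ± 0.10 (SD, n = 2 each). Different probes bind with different strength, so the ratio on an array does not give the ratio of the transcripts, and only its movement between arrays is described. With 2 arrays against 2, an exact permutation test cannot go below p = 0.333, and none was run.

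The log2 differences of the AP2 genes ran from -0.13 to 0.31, with 3 of the 4 above zero, and 0 of the 4 were called here or under any alternative. Of all 10239 genes, 34.4% were called and 5585 were above zero. The nearest to a call was AP2A1 with its probes averaged, at 0.55 with an adjusted p of 0.0502 (limma, Benjamini-Hochberg). The lack of a call thus does not show that these genes were unchanged. AP2A1 encodes the alpha subunit, which binds membrane lipid and, through its appendage, accessory proteins. Its brighter probe read 8.76 and 8.86 in the controls and 9.31 and 8.92 with the mimic. The SD of 0.28 between the mimic arrays was the widest within a group among the probes that stand for the members, and the log2 difference was 0.31 ± 0.15 (SE). Without mimic replicate 1 it was 0.11 and without mimic replicate 2 it was 0.50.

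The second AP2A1 probe, at a lower level, read 7.15 and 7.73 in the controls and 8.30 and 8.17 with the mimic. Both mimic arrays were higher, by 0.79 ± 0.21 on the log2 scale (estimate and SE), with an SD of 0.41 between the control arrays. This probe was not called among probes, with an adjusted p of 0.0528 (limma, Benjamini-Hochberg over kept probes). Its signals of 289 and 371 in the controls and 449 and 445 with the mimic were the lowest of the kept member probes.

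AP2M1 encodes the mu subunit, which recognises tyrosine-based sorting signals in cargo tails. Its probe read 10.82 and 11.03 in the controls and 11.18 and 11.07 with the mimic, a log2 difference of 0.20 ± 0.11 (SE). The second probe read 10.85 and 10.92 against 11.03 and 11.01, a difference of 0.13 ± 0.08. Both probes were slightly higher with the mimic without overlap, and neither was called.

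AP2B1 encodes the beta subunit, which binds clathrin. Its probe read 9.74 and 10.04 in the controls and 9.80 and 9.71 with the mimic, so the groups overlapped. The log2 difference was -0.13 ± 0.13 (SE), and -0.03 ± 0.10 for the second probe. Without control replicate 2 it was 0.02, and without control replicate 1 it was -0.28.

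AP2S1 encodes the small sigma subunit, part of the core of AP2. Its brighter probe read 15.00 and 14.98 in the controls and 15.08 on both mimic arrays, a log2 difference of 0.09 ± 0.07 (SE). The second probe read 12.78 and 12.88 against 12.84 and 12.83, a difference of 0.0034 ± 0.08. The second probe's groups overlapped, and neither probe was called.

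EPN1 encodes epsin, which inserts a helix into the membrane and binds ubiquitinated cargo. Its only annotated probe had signals of 6909 and 7789 on the control arrays and 11649 and 12125 on the mimic arrays. The normalized log2 signals were 12.75 and 12.78 in the controls and 13.58 and 13.51 with the mimic. Within each group the arrays differed far less than the groups did. The means were 12.77 ± 0.02 and 13.55 ± 0.05 (SD, n = 2 each), a log2 difference of 0.78 ± 0.08 (SE), or 1.72-fold higher. EPN1 was the only member called under all 14 alternatives. Of all genes, 11.1% had a larger absolute difference.

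PICALM encodes CALM, which sets the size of the coated vesicle and retrieves vesicle fusion proteins. Its brighter probe had signals of 5157 and 5646 in the controls and 4024 and 3707 with the mimic. The normalized log2 signals were 12.31 and 12.33 in the controls and 12.04 and 11.76 with the mimic. Both mimic arrays were lower, but they were further from each other than the controls were, with means of 12.32 ± 0.01 and 11.90 ± 0.19 (SD, n = 2 each). The log2 difference was -0.42 ± 0.12 (SE), which was not called here and was called under 7 of 14 alternatives. Of these 7, the authors' processed values and the setting without background correction gave the same difference, -0.41. The second probe, at a lower level, read 9.28 and 9.18 against 9.04 and 9.24. Its groups overlapped, and its difference was -0.09 ± 0.11.

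APPL1 encodes an adaptor that binds the GTPase RAB5 on early endosomes and links them to receptor signalling. Its only annotated probe had signals of 949 and 915 on the control arrays and 600 and 611 on the mimic arrays. The normalized log2 signals were 9.65 and 9.51 in the controls and 8.89 and 8.81 with the mimic. Both mimic arrays were below both controls, with means of 9.58 ± 0.10 and 8.85 ± 0.05 (SD, n = 2 each). The log2 difference was -0.74 ± 0.09 (SE), or 1.66-fold lower. The call was lost without mimic replicate 1 and without mimic replicate 2.

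**Figure D2:**
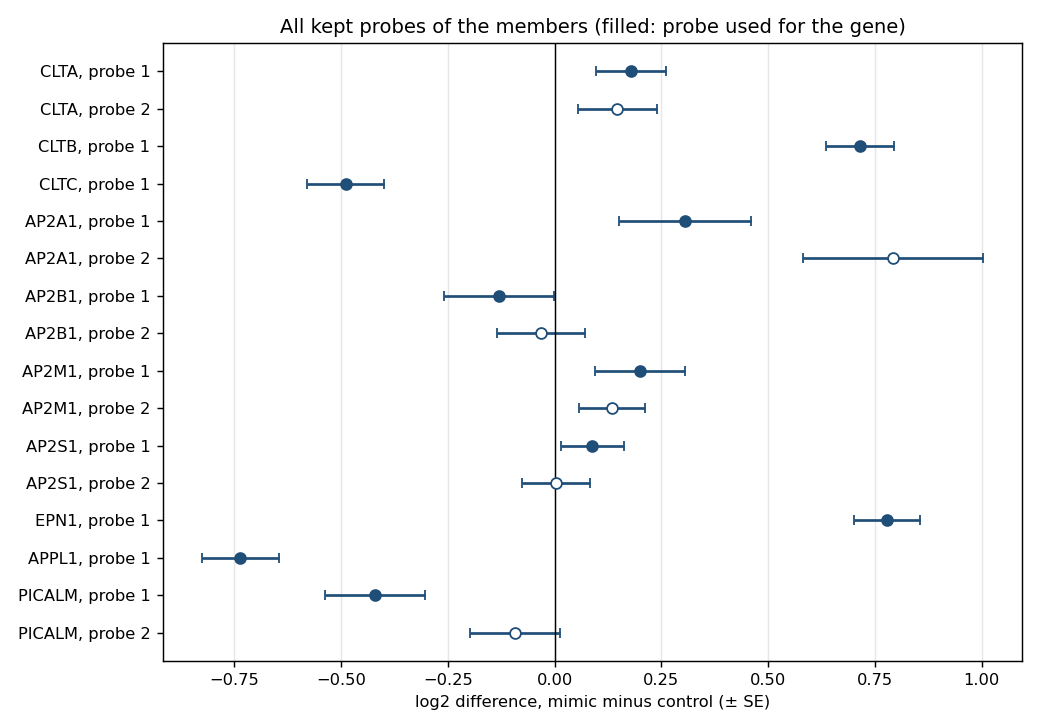
Log2 difference, mimic minus control (horizontal axis), with its SE for each of the 16 kept probes of the members, the filled point being the probe that stands for its gene. The 2 probes of AP2A1 lie at 0.31 and 0.79 and those of PICALM at -0.42 and -0.09, so in both genes the size depends on the probe.

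Of the 10 members, 6 had 2 kept probes, and in all 6 the probes had the same sign. Little is read from this. The second probes of AP2S1 (0.0034 ± 0.08), AP2B1 (-0.03 ± 0.10) and PICALM (-0.09 ± 0.11) differed by less than their SE, with overlapping groups. How often probe pairs share a sign over all genes was not counted. The other 4 members, CLTB, CLTC, EPN1 and APPL1, rested on 1 kept probe each, and these were the 4 called members. No second kept probe was thus at hand for any of the calls. Among probes, with p-values adjusted over all kept probes, 2 of the 16 were called higher and 2 lower, where 29.7% of kept probes were called. The groups did not overlap for 12 of the 16, as for 68.6% of kept probes. All 16 were detected on all 4 arrays, and the 3 that were not kept were detected on none. The nearest values on either side of the detection rule both belonged to AP2A1, with a detection p of 0.0026 for its second probe on control 1 and 0.026 for its probe that was not kept on mimic 2.

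Around these members stood 93 other genes of clathrin traffic in 9 lists, of which 69 were measured. Of the 69, 5 rose and 20 fell with the mimic (limma, Benjamini-Hochberg), and 44 did not pass. That is 36.2% called, where 34.4% of all genes were, 18% higher and 16.5% lower. By list the share ran from 0% to 60%, over 3 to 16 measured genes a list, and nothing particular to a list is read from it. The median log2 difference of the 69 genes was -0.10 and that of all genes 0.04. With median scaling, 1 rose and 19 fell, and the fit without mimic replicate 1 called 0 higher and 6 lower, as did the fit without mimic replicate 2. Without control replicate 1, 1 was called higher and 11 lower, and without control replicate 2, 1 and 10. From these lists 18 called genes are named by rule, with limma adjusted p-values from 0.00226 to 0.0364 after Benjamini-Hochberg adjustment. Both mimic arrays lay on the same side of both controls for each of them, which their choice as called genes with large differences favours, and for 72.9% of all genes. Only 6 of them, NECAP1, DAB2, SYNJ2, PIK3C2A, RAB5C and AP1S2, kept their call under every alternative that measured them. The other 12 lost it without mimic replicate 1 and without mimic replicate 2, and 8 of these 12 lost it under further settings too.

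Among 6 measured genes of the second alpha subunit and of the proteins that assemble, phosphorylate or accompany AP2, 1 fell and 5 did not pass. That is 16.7% called, where 34.4% of all genes were. NECAP1, which binds AP2 and helps to organise its partners, read 10.32 and 10.59 in the controls and 9.01 and 9.30 with the mimic. It fell by 1.31 ± 0.15 on the log2 scale (estimate and SE). AP2A2, the paralog of AP2A1, had a log2 difference of -0.04 ± 0.08. The related NECAP2 had a difference of -0.22 ± 0.08 and did not pass.

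Among the scaffold proteins that start a pit, 1 of 5 measured genes fell and 4 did not pass. The share called was 20%, and 34.4% over all genes. EPS15L1, a relative of the scaffold EPS15, fell by 0.62 ± 0.09, but it was detected on 1 of 2 mimic arrays, so the size depends on a level close to background. Without background correction its log2 difference was -0.30. EPS15 itself had a log2 difference of 0.30 ± 0.09 and did not pass.

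Of 8 measured genes for other cargo and membrane adaptors, 4 fell, 0 rose and 4 did not pass, with a median log2 difference of -0.37. That is 50% called, where 34.4% of all genes were, 18% higher and 16.5% lower. DAB2, an adaptor for receptors of the LDL receptor family, read 10.02 and 10.07 in the controls and 8.84 and 8.33 with the mimic. It fell by 1.46 ± 0.19, and its second kept probe had a log2 difference of -1.16. EPN2, the paralog of EPN1, fell by 0.59 ± 0.11, while EPN1 was on the higher side. NUMBL, a relative of the adaptor NUMB, fell by 0.52 ± 0.10, and its log2 difference without background correction was -0.32.

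Genes that bend and cut the membrane gave 1 fall and 8 that did not pass among 9 measured. The share called was 11.1%, and 34.4% over all genes. PACSIN3, a membrane-curving protein, fell by 0.40 ± 0.08. Its paralog PACSIN2 did not pass on its brighter probe (-0.17), and its second kept probe had a log2 difference of -0.65. DNM2, the dynamin that severs the neck of the pit, had a log2 difference of -0.09 ± 0.09.

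Of 9 measured genes for uncoating and for the phosphoinositides of the pit, 4 fell, 1 rose and 4 did not pass. That is 55.6% called, where 34.4% of all genes were. PIK3C2A, a lipid kinase that acts as the pit matures, read 10.91 and 10.87 in the controls and 9.49 and 9.47 with the mimic, and fell by 1.41 ± 0.07. The lipid phosphatase gene SYNJ2 fell by 0.93 ± 0.09, and its log2 difference without background correction was -0.64. Its paralog SYNJ1 was the gene that rose, by 0.43 ± 0.09. OCRL, another phosphoinositide phosphatase, fell by 0.47 ± 0.08. Its second kept probe had a log2 difference of -0.15, and the mean of its probes one of -0.31. HSPA8, the chaperone that strips clathrin from vesicles, had a difference of -0.13 ± 0.08 and did not pass.

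Among 8 measured partners of APPL1 on early endosomes, 3 fell, 1 rose and 4 did not pass. The share called was 50%, and 34.4% over all genes. APPL2, the paralog of APPL1, read 11.09 and 11.15 in the controls and 10.60 and 10.48 with the mimic, and fell by 0.58 ± 0.09. RAB5C, a GTPase of the RAB5 group that APPL1 binds, read 10.46 and 10.63 in the controls and 6.78 and 6.61 with the mimic. It was detected on 1 of 2 mimic arrays, so the fall of 3.85 ± 0.11 depends on a level close to background. Its second kept probe had a log2 difference of -2.66, and without background correction that of the brighter probe was -2.70. RAB5A had a difference of 0.24 ± 0.08 and did not pass. RBSN, an effector of RAB5, rose by 0.39 ± 0.08.

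Of 5 measured cargo receptors, 2 rose, 1 fell and 2 did not pass. That is 60% called, where 34.4% of all genes were. IGF2R, which carries lysosomal enzymes, read 11.70 and 11.51 in the controls and 12.53 and 12.46 with the mimic, and rose by 0.89 ± 0.10. SCARB2, a lysosomal membrane protein, rose by 0.35 ± 0.08. EGFR, the receptor for epidermal growth factor, fell by 0.65 ± 0.08. Its second kept probe had a log2 difference of -0.07, and the mean of its probes one of -0.36. TFRC, the transferrin receptor and a classic cargo of AP2, had a difference of 0.26 ± 0.08 and did not pass.

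None of the 3 measured genes for the other heavy chain and for spindle partners of clathrin passed, and the heavy chain paralog CLTCL1, detected on 1 of 2 mimic arrays and close to background on all 4, had a log2 difference of -0.29 ± 0.19. The adaptors that use clathrin at the Golgi and on endosomes, where 16 genes were measured, gave 5 falls, 1 rise and 10 that did not pass. AP1S2, a sigma subunit of AP1, read 10.71 and 10.72 in the controls and 9.89 and 9.94 with the mimic. It fell by 0.80 ± 0.08, and its second kept probe had a difference of -0.84. AP3M2, a mu subunit of AP3, fell by 0.60 ± 0.09, and the adaptor gene GGA2 fell by 0.50 ± 0.08. Of the 16 genes, 37.5% were called, where 34.4% of all genes were. Whether AP2 and the Golgi adaptors differ was not tested.

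**Figure D3:**
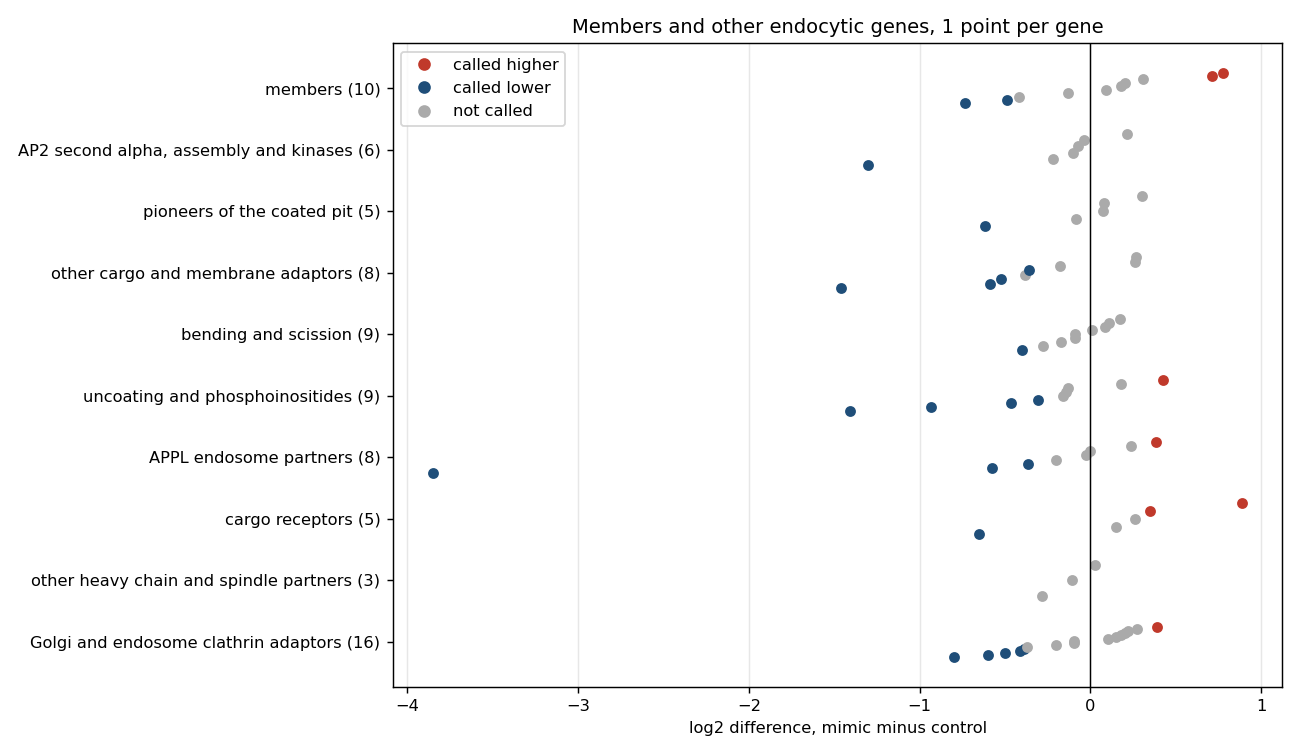
Log2 difference, mimic minus control (horizontal axis), of the 10 members and the 69 measured genes of 9 endocytic lists, 1 point a gene, with called genes in colour and the number of measured genes in brackets. The members lie between -0.74 and 0.78, and the point at the far left, -3.85, is RAB5C, whose mimic arrays read close to background.

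Across the 14 alternatives the sign of the difference held for 9 of the 10 members. AP2B1 was the exception, in the setting named above. A changed probe filter, the variance trend and the replicate block left each member's difference as reported, so no sign could change there. Leaving out 1 array could not change the sign of a member whose groups did not overlap. That held for every member but AP2B1, so the count of 9 largely restates the lack of overlap. Averaging probes did likewise for the 4 members with 1 kept probe. EPN1 stayed between 0.72 and 0.81, CLTB between 0.65 and 0.76, CLTC between -0.56 and -0.41 and APPL1 between -0.80 and -0.59. PICALM ranged from -0.56 without mimic replicate 1 to -0.26 with its probes averaged, and AP2A1 from 0.11 to 0.55. AP2M1 was at 0.10 without control replicate 1 and at 0.30 without control replicate 2. With median scaling CLTA was at 0.09 and AP2S1 at 0.03.

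**Figure D4:**
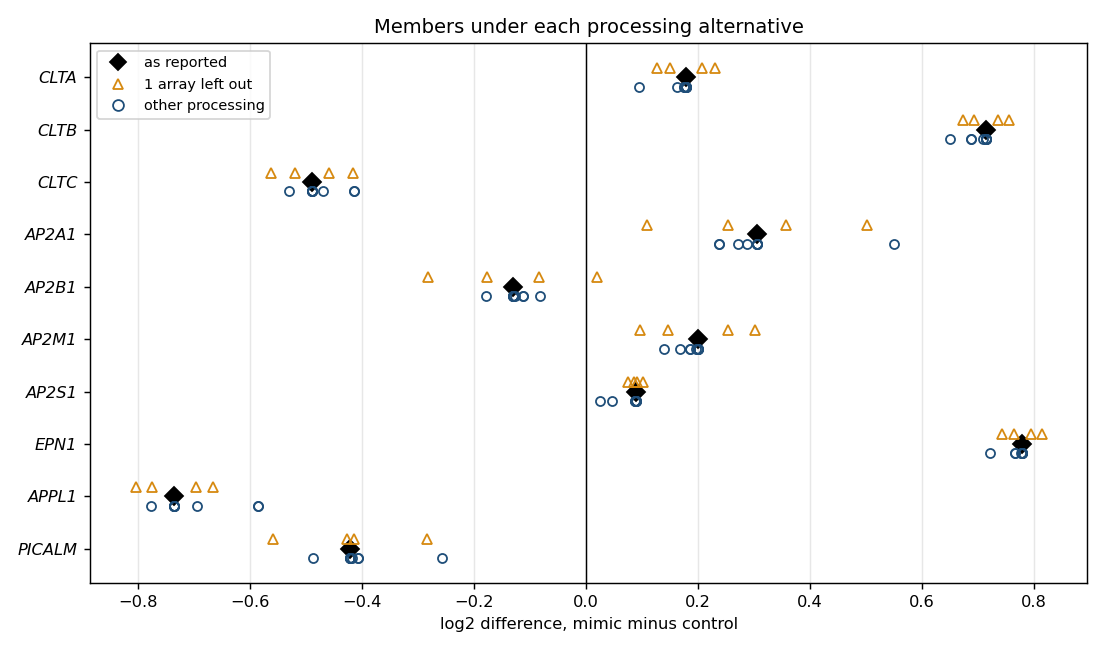
Log2 difference, mimic minus control (horizontal axis), of each member as reported (diamond), with 1 array left out (triangles) and under the other processing alternatives (circles). The lowest values of EPN1 and CLTB are 0.72 and 0.65 and the value of APPL1 nearest to zero is -0.59, while a triangle of AP2B1 crosses zero.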

How the data were processed

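RNA of A549 cells was amplified to biotinylated cRNA and read on 2 control and 2 mimic arrays, per the labels' protocols. The file the authors deposited gives each probe's linear intensity before any normalization, with a detection p-value beside it. GenomeStudio 2009.2 is named in the submitters' processing notes. A further deposited table holds log2 values that the authors had processed, for 19069 probes, by steps not stated in the sources used here. Each array's median there was 9.42, and the sorted values of the arrays differed by at most 0.0027. For all 10 members, differences from these values equalled those of quantile-normalized log2 signals without background correction. Centred by probe, each array correlated at 0.979 or more with its own log2 signals, at a slope of 0.902 to 0.994, which gives their direction and a scale close to log2.

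Signals were background-corrected with the detection p-values (normexp, offset 16), quantile normalized and put on a log2 scale with neqc in limma 3.58.1 (R 4.3.3). Probes were named from the platform annotation, updated through RefSeq (GRCh38.p14); 30092 of 30113 singly named probes matched. lmFit and eBayes, without covariates, were fitted over the 16561 kept probes (degrees of freedom: 2 residual, 2.48 prior). Each gene took its kept probe with the highest mean, with Benjamini-Hochberg adjustment over genes. The fit was tested on simulated data, and no result of that test is used here. Members and lists were chosen with earlier results of these data known. All members and up to 3 called genes of each list with the largest difference were named by rule. Other list genes given with values (AP2A2, NECAP2, EPS15, PACSIN2, DNM2, SYNJ1, HSPA8, RAB5A, TFRC and CLTCL1) were picked after their values were seen. Nothing in the labels says that replicates were separate cultures, so the p-values reflect only the spread between arrays, which may be technical. The number of arrays limits the precision. No slide or scan date was at hand, so no batch was examined. Figures were drawn with matplotlib 3.10.9.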

Additional observations from a re-analysis of the deposited data

How the results depend on the processing

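Of 140 member values under the 14 alternatives, 124 kept their side of the threshold, 8 lost a call and 8 gained one, and no called value changed sign. The authors' processed values and the signals without background correction gave the same member differences, so they are not separate checks. Of 250 values of the named list genes, 200 kept their call and 50 lost it, all with the same sign. As for the members, settings that changed only the filter, the variance trend or the replicate block could not change a sign. Nor could leaving out 1 array for any of these list genes, or for any member but AP2B1, since their groups did not overlap. The shared sign is thus no separate check in those fits. Without a filter on dim probes, 768 genes were called higher and 961 lower, against 1839 and 1685, with 1 member called lower and with 1 list gene higher and 11 lower. List genes called higher numbered 1 with median scaling, 8 with probes averaged and 9 with a variance trend. With 1 array left out, 310 to 1140 genes were called higher and 607 to 1089 lower, 1 to 2 members higher and 0 to 1 lower, and 0 to 1 list genes higher and 6 to 11 lower; these fits have 1 residual degree of freedom, and a lone array is assumed to vary like the other group. With the replicate number as a block, 1306 genes were called higher and 1328 lower, 2 members higher and 2 lower, and 1 list gene higher and 15 lower. Same-numbered arrays deviated from their group means with r = -0.057 across genes, which are not independent replicates, so the numbers are not taken to pair the arrays. Fewer arrays enter the fits with 1 left out and more probes the fit without a filter; the cause of the other changes was not tested. Averaged over the 4 arrays, the AP2A1 probes lie nearest to background among the kept probes of the members.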
